A study of Homo sapiens with 4 samples.

Results

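The genes of the translation initiation factors were compared between QGP-1 cells given medium conditioned by pancreatic stellate cells (PSC medium) and mock-treated QGP-1 cells. Members were all genes whose symbol in the array's probe table begins with EIF and a digit from 1 to 6, with EIF4EBP1 left out. The rule found 75 of 28264 probes, which stand for 53 of 19090 named genes. Members were chosen by symbol alone and by no intensity, but the family as a topic was selected on earlier results for the difference between PSC medium and mock on these arrays. The p-values and counts of that difference below are therefore a description of the 4 arrays and no independent evidence.

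QGP-1 is an established human cell line of a pancreatic neuroendocrine tumour. Stellate cells are mesenchymal cells that lay down matrix in the pancreas. All cells were grown with 10% fetal bovine serum in RPMI-1640 and then held at 0.1% serum for 24 h, in PSC medium or in mock conditions, with 2 arrays per group. All arrays come from this cell line, and nothing in the labels states that a group's arrays were separate cultures. The spread behind each p-value is thus that between these samples and could be technical. The labels give neither the make-up of the mock medium nor the number of stellate cell preparations. Raw median intensity ranged from 662 to 829 over the arrays, and Pearson's r across genes, which are not independent replicates, was 0.986 and 0.988 within the groups and 0.978 to 0.981 between them. Of 8 neuroendocrine markers, 7 lay above the median gene level and 0 passed the limma test (0 higher, 1 lower, with an unadjusted p below 0.05). The unadjusted share was 12.5%, against 22.5% of all genes. Of 8 mesenchymal markers, 1 (COL1A1) lay above it, and their mean log2 level was 7.16 to 7.35 on the mock arrays and 7.11 to 7.15 on the PSC medium arrays. The intermediate filament gene DES was the only one of these 8 that passed (12.5%, against 2.14% of all genes), and it was lower with PSC medium (log2 fold change -1.48). Its probe was dim, with log2 levels of 6.54 and 6.77 in mock cells and 5.24 and 5.11 with PSC medium.

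Initiation begins when eIF2, loaded with GTP and the initiator methionyl-tRNA, joins the small ribosomal subunit together with eIF1, eIF1A, eIF3 and eIF5. The eIF4 factors bind the mRNA cap, unwind the leader and bring the mRNA to that subunit, and eIF5B then joins the large subunit. After each round eIF2B reloads eIF2 with GTP, and kinases that phosphorylate the alpha subunit of eIF2 under stress turn it into an inhibitor of eIF2B, which lowers general initiation while favouring mRNAs such as that of ATF4. An array measures mRNA only, so neither phosphorylation of eIF2 nor protein synthesis is read by any value here.

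Levels are quantile-normalized log2 intensities, and every difference is PSC medium minus mock on that log2 scale with the standard error of limma's fit over all 19090 genes. Across the family, 1 of 53 genes rose at a Benjamini-Hochberg adjusted p under 0.05 in limma, 0 fell and 52 did not pass. The gene that rose was EIF4EBP3, which encodes a protein that binds eIF4E and blocks cap-dependent initiation. The share of 1.89% lay near the 2.14% called among all genes (1.17% higher, 0.974% lower), so the count sets nothing apart about the family. Judged by an unadjusted p below 0.05, 10 members were higher and 1 was lower, which was 18.9% and 1.89% of the family against 9.84% and 12.7% of all genes (22.5% in either direction). The arrays of the groups did not overlap for 26 members, 20 higher and 6 lower (37.7% and 11.3%), against 24.5% and 29.0% of all genes and 53.5% in either direction. The median difference of the family was 0.08, against -0.01 for all genes, and 32 members had a positive and 21 a negative difference. Without normalization the family median was 0.16 and that of all genes 0.03, and under median centring they were 0.03 and -0.10.

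**Figure D1:**
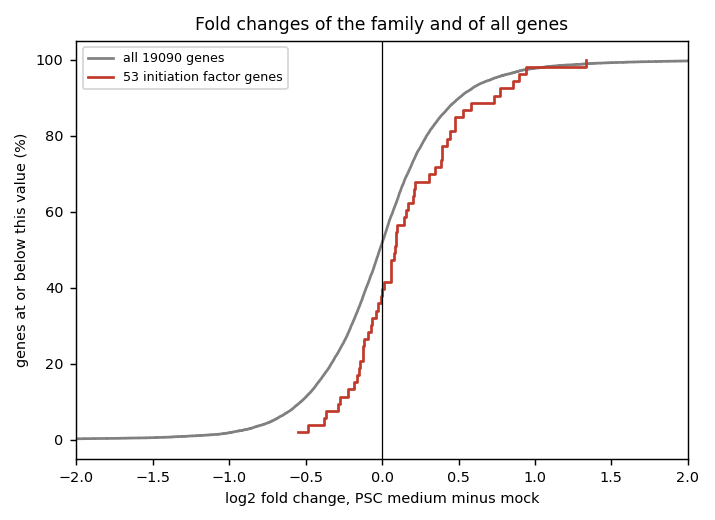
Cumulative share of genes (vertical axis, percent) by log2 fold change of PSC medium minus mock (horizontal axis) for all 19090 genes in grey and the 53 initiation factor genes in red. The red curve has its median at 0.08 and the grey one at -0.01, and the most negative member lies at -0.55.

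**Figure D2:**
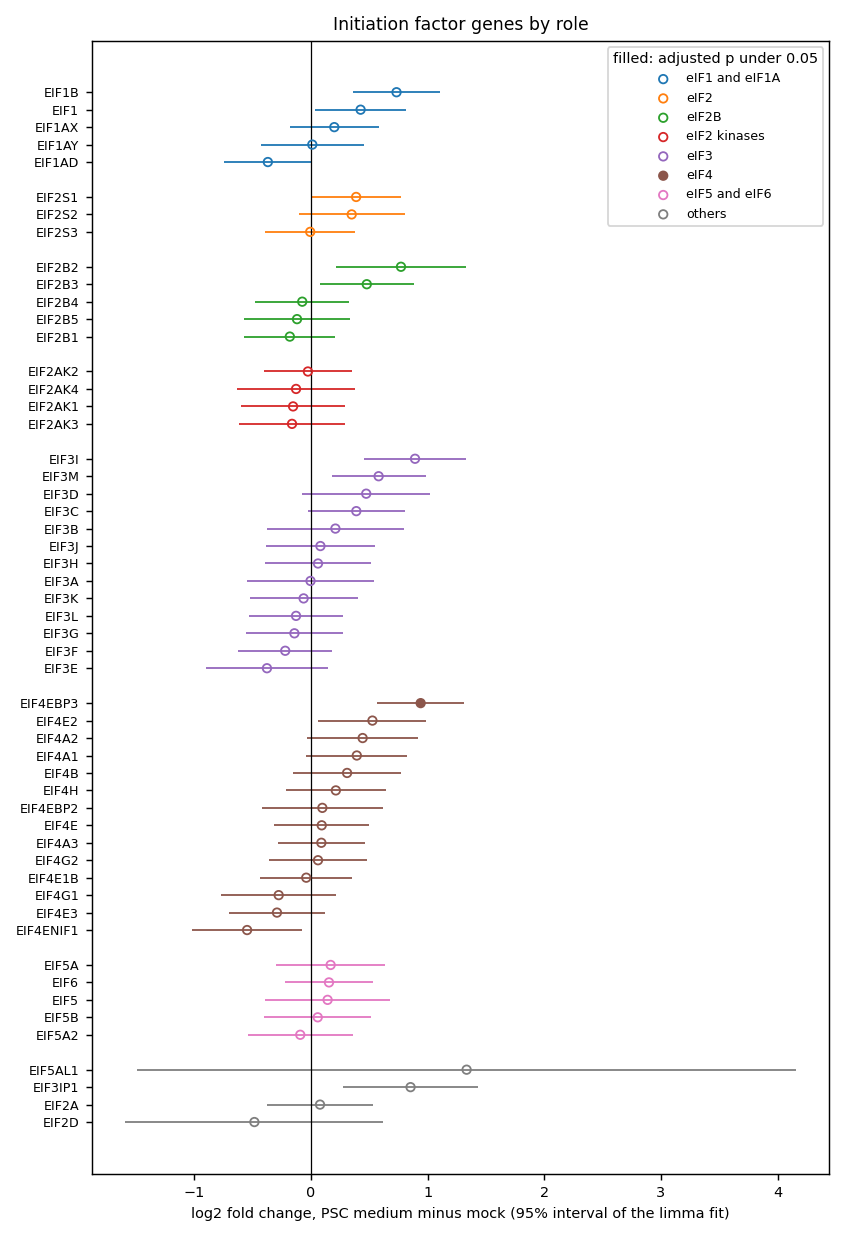
Log2 fold change, PSC medium minus mock, of each initiation factor gene (points) with the 95% interval of the limma fit (bars), ordered by role, with 2 arrays per group. EIF4EBP3 at 0.94 is the only filled point, that is, the only one with an adjusted p under 0.05, and the 4 kinase genes all lie just below 0.

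The count of members called depended on the statistical setting. With an added constant of 50 before the log2, or with genes under the median level left out, 5 members were called higher, and with a trended robust variance 8 were called higher and 1 lower. These settings also raised the share called among all genes to 9.10%, 18.8% and 17.8%. With genes under the median level left out, the members had the same standard error of 0.206, so a gene's own spread had no weight. The trended variance gave it little weight, with errors of 0.186 for EIF1B and 0.187 for EIF2B2, whose PSC medium arrays lay 0.58 apart. Without normalization, with median centring and with a gene's probes averaged, 0 members were called, and so it was whenever any 1 of the 4 arrays was left out. The share called among all genes was 0.592%, 0.477% and 0.487% in the first 3 of these settings and 0% to 0.189% with an array left out, so 0 of 53 is near what the whole table gave.

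The 4 named genes of the family with the largest positive differences, leaving out the copies EIF3IP1 and EIF5AL1, were EIF4EBP3, EIF3I, EIF2B2 and EIF1B. Their 250 bases upstream of the RefSeq start (GRCh38.p14) are shown so that the promoters of the members that differed most can be compared, 5′ to 3′ on the strand of the gene. Capitals mark CACGTG, the E-box letters that bind MYC and other basic helix-loop-helix factors.
EIF4EBP3 (chr5:140547412-140547661, plus strand): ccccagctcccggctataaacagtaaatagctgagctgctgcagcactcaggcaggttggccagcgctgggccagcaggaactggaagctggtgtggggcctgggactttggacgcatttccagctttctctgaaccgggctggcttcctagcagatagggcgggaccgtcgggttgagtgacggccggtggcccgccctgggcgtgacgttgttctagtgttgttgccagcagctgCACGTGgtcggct
EIF1B (chr3:40309457-40309706, plus strand): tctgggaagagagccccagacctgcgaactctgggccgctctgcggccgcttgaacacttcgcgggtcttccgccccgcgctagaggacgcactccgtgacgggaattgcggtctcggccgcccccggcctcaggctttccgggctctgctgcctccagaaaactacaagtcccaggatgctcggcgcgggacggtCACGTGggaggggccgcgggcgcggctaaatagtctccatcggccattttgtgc
EIF3I (chr1:32222157-32222406, plus strand): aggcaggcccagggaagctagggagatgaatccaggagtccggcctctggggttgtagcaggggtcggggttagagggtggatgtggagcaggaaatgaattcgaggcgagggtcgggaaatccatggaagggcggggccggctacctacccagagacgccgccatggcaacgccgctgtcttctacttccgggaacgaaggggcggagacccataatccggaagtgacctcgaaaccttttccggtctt
EIF2B2 (chr14:75002671-75002920, plus strand): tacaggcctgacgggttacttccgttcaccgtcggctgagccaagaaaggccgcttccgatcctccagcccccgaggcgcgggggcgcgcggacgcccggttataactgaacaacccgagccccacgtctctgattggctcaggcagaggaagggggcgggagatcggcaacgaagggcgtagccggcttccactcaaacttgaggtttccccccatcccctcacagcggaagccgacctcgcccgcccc
EIF4EBP3 carried the E-box letters 13 bases upstream of its start and EIF1B 54 bases upstream, and neither EIF3I nor EIF2B2 held them. RefSeq promoters were matched for 45 of the 53 genes, in 59 windows, and 12 of these genes (26.7%) held CACGTG, which reads the same on both strands. Of 15159 genes of the array with a promoter in that table, 9.70% held it, and 7.73% of all 27305 genes in the table, with no match for base composition. The other members with the E-box differed in sign and size. Positive were EIF2B3 (0.48), EIF4B (0.31), EIF4H (0.21), EIF4E (0.09) and EIF4A3 (0.09). Negative were EIF2AK2 (-0.03), EIF3K (-0.06), EIF5A2 (-0.09), EIF3F (-0.22) and EIF4G1 (-0.28). A link between the E-box and the differences was not tested. TGATGNAA, the core of the amino acid response element bound by ATF4, was sought on both strands and found in 1 member, EIF4E3, 13 bases upstream of 1 of its starts (2.22% of the members, 3.19% of the array's genes). The 2 motifs did not overlap in any of these windows.

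None of the 3 subunits of eIF2 itself passed, although 2 of them had a positive difference (median 0.35). EIF2S1, the alpha subunit that the stress kinases phosphorylate, had levels of 10.31 and 10.41 on the mock arrays and 10.70 and 10.79 on the PSC medium arrays. The groups did not overlap, and the difference was 0.39 ± 0.16 (SE, n = 2 per group, limma adjusted p = 0.218). A second, dimmer probe of EIF2S1 had the opposite sign (-0.44 ± 0.21), and with both probes averaged the difference was -0.025. EIF2S2, the beta subunit, had 9.65 and 9.64 in mock cells and 9.81 and 10.18 with PSC medium, again without overlap (0.35 ± 0.19, limma adjusted p = 0.328), with a difference of 0.16 without PSC medium array 2. EIF2S3, the gamma subunit that binds GTP and the initiator tRNA, had 14.25 and 14.09 against 14.18 and 14.16, with overlapping groups and a difference of -0.01 ± 0.16. Its second probe had 0.41 ± 0.18, so 2 of the 3 subunits gave no common value over their probes.

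The 5 subunits of eIF2B had 2 positive and 3 negative differences, and 0 passed in limma (2 higher, 0 lower, with an unadjusted p below 0.05). The unadjusted share was 40% of only 5 genes, against 22.5% of all genes (9.84% higher). EIF2B2, the beta subunit of the regulatory core, had 13.13 and 13.22 on the mock arrays and 14.24 and 13.66 on the PSC medium arrays. Both PSC medium arrays were higher, but they lay 0.58 apart from each other on the log2 scale, and the difference was 0.77 ± 0.23 (1.71-fold, limma adjusted p = 0.127), or 0.48 without PSC medium array 1. EIF2B3, the gamma subunit of the catalytic part, had 12.93 and 12.70 against 13.32 and 13.26 (0.48 ± 0.17, limma adjusted p = 0.167), also without overlap. The catalytic epsilon subunit gene EIF2B5, in which nucleotide exchange takes place, had 13.58 and 13.26 against 13.41 and 13.19, and its groups overlapped (-0.12 ± 0.19). EIF2B4, the delta subunit, had 12.73 and 12.77 against 12.57 and 12.78, with PSC medium array 1 low and array 2 level with mock (-0.07 ± 0.16). EIF2B1, the alpha subunit, had 11.82 and 12.00 against 11.75 and 11.71, a small shift the other way (-0.18 ± 0.16). The signs of EIF2B4 and EIF2B5 were not stable, since without PSC medium array 1 EIF2B4 had 0.033 and without mock array 1 EIF2B5 had 0.039. Each of the 5 genes rested on 1 probe.

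The 4 eIF2 kinase genes had differences between -0.16 and -0.03, and their groups overlapped in every case. EIF2AK3, which encodes the endoplasmic reticulum kinase PERK, had 15.22 and 14.96 on the mock arrays and 15.06 and 14.79 on the PSC medium arrays (-0.16 ± 0.19). EIF2AK4, which encodes the amino acid sensor GCN2, had 9.90 and 10.28 against 9.82 and 10.11 (-0.13 ± 0.21). In both genes the spread between arrays of a group was larger than the difference between groups. EIF2AK1, the heme-regulated kinase HRI, had 14.25 and 14.07 against 14.15 and 13.86 (-0.15 ± 0.18), and its 2 other probes had -0.25 and 0.12. EIF2AK2, the double-stranded RNA sensor PKR, had 11.11 and 11.00 against 11.06 and 11.00 (-0.03 ± 0.16). The 95% intervals of the 4 differences ran from -0.63 to 0.38, so a change of 1 on the log2 scale lay outside each of them, while differences within that range were not resolved with 2 arrays per group. The kinase genes are also the only role group with 0 positive differences, beside a median of -0.01 for all genes.

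**Figure D3:**
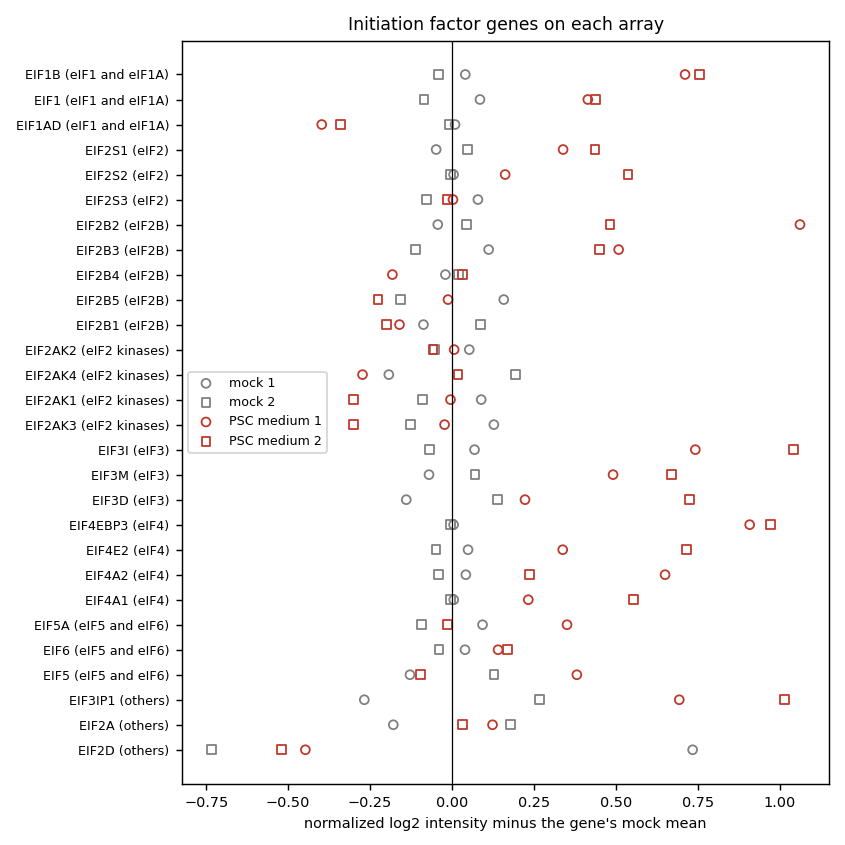
Normalized log2 intensity of each array minus the gene's mock mean (horizontal axis) for 28 initiation factor genes (vertical axis), with mock arrays in grey and PSC medium arrays in red, circles for array 1 and squares for array 2. For EIF4EBP3, EIF1B and EIF3I both red symbols lie far to the right of the grey ones, and for the kinase genes red and grey symbols mix.

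Among the factors of start codon selection, EIF1B had the most positive difference. EIF1 and its close paralog EIF1B keep the scanning ribosome from settling on poor start codons. EIF1B had 13.57 and 13.49 on the mock arrays and 14.24 and 14.28 on the PSC medium arrays, and EIF1 had 17.59 and 17.42 against 17.92 and 17.95. In both, the PSC medium arrays agreed closely and lay above both mock arrays, with differences of 0.73 ± 0.15 (1.66-fold, limma adjusted p = 0.0699) and 0.43 ± 0.16 (limma adjusted p = 0.191). EIF1B was called with an added constant of 50 (limma adjusted p = 0.0196). It was also called with dim genes left out and with a trended robust variance, which give a gene's own spread little or no weight. It was not called in the other 8 alternatives, with adjusted p of 0.0804 to 0.337 (0.278 without normalization, 0.140 with median centring, 0.105 with the replicate block). A second probe of EIF1 had 0.34. EIF1AD, an eIF1A domain protein gene whose part in initiation is not settled, had 12.72 and 12.70 against 12.31 and 12.37 (-0.37 ± 0.15, limma adjusted p = 0.225). EIF1AX, the eIF1A gene of the X chromosome, had a difference of 0.20, and its Y-linked copy EIF1AY one of 0.01. Because EIF1 and EIF1B, and likewise EIF1AX and EIF1AY, are alike in sequence and probe sequences were not used here, signal shared between copies cannot be set apart.

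The 13 eIF3 subunits differed in sign and size. Of the subunits of this scaffold, which holds the other factors on the small ribosomal subunit, 7 had a positive and 6 a negative difference, with a median of 0.06 and a range from -0.38 to 0.89. In limma 0 passed, and 2 (0 of them lower) had an unadjusted p below 0.05, which was 15.4% against 22.5% of all genes. EIF3I, a subunit with WD repeats, had 14.37 and 14.24 on the mock arrays and 15.05 and 15.35 on the PSC medium arrays. Both PSC medium arrays exceeded both mock arrays by more than the spread within either group (0.89 ± 0.18, 1.86-fold, limma adjusted p = 0.0664). EIF3I was called with an added constant of 50 (limma adjusted p = 0.0151). It was also called with dim genes left out and with a trended robust variance, which give a gene's own spread little or no weight. EIF3I was not called in the other 8 alternatives (limma adjusted p = 0.222 without normalization, 0.125 with median centring, 0.0996 with the replicate block). Its second probe pointed the same way with a smaller difference of 0.42 ± 0.19. That probe had 14.22 and 14.44 in mock cells, a slightly higher mean than the probe used. The probe used for EIF3I was thus the brightest only through its PSC medium arrays. The pseudogene EIF3IP1, whose sequence derives from EIF3I, had 10.46 and 10.99 against 11.42 and 11.74 (0.85 ± 0.24, limma adjusted p = 0.113), and the 2 copies are uncertain on an array.

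EIF3M, a subunit of the structural core, had 12.20 and 12.34 in mock cells and 12.76 and 12.94 with PSC medium (0.58 ± 0.16, limma adjusted p = 0.119). EIF3D, which can itself bind the cap of some mRNAs, had 15.19 and 15.47 against 15.55 and 16.05 (0.47 ± 0.22, limma adjusted p = 0.279), with the PSC medium arrays 0.50 apart on the log2 scale and a difference of 0.22 without array 2. EIF3C, a core subunit with a near-identical neighbouring copy, had a difference of 0.39 from its brightest probe and 0.36 from its other one. At the other end lay EIF3E (-0.38 ± 0.21), EIF3F (-0.22), EIF3G (-0.14) and EIF3L (-0.13). EIF3E and EIF3F were the 2 subunits whose PSC medium arrays both lay below mock, and EIF3F was dim, with log2 levels of 6.09 and 5.94 in mock cells. The remaining subunits EIF3A, EIF3B, EIF3H, EIF3J and EIF3K had differences between -0.06 and 0.21, with overlapping groups.

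The eIF4 genes had 10 positive and 4 negative differences (median 0.10), and 1 of the 14 rose, again EIF4EBP3. This single gene is 7.14% of the group, against 2.14% called among all genes. EIF4EBP3 had levels of 8.12 and 8.11 on the mock arrays and 9.02 and 9.09 on the PSC medium arrays. The groups were tight and far apart, and the difference was 0.94 ± 0.15 (1.92-fold, limma adjusted p = 0.045). Its probe was dim, below the median gene level of 10.13, with raw intensities of 246 and 284 in mock cells and 528 and 586 with PSC medium. The difference ranged from 0.83 to 1.07 over 10 alternative settings, and it was called in 2 of them. These were the added constant (limma adjusted p = 0.0126) and the trended variance (1.71e-05), which gives a gene's own spread little weight. Without normalization the limma adjusted p was 0.171, and with median centring 0.115. The setting that leaves out dim genes does not hold EIF4EBP3. With every probe tested on its own its adjusted p was 0.0671, and with the replicate number as a block it was 0.0835. EIF4EBP3 overlaps the read-through gene ANKHD1-EIF4EBP3, whose own probe, looked up after the values of EIF4EBP3 were seen, had -0.33 ± 0.18 (limma adjusted p = 0.326), and the related gene ANKHD1, looked up at the same time, had 0.08 ± 0.18. The related eIF4E-binding protein gene EIF4EBP2 had a difference of 0.10 ± 0.21. EIF4ENIF1, whose product carries eIF4E into the nucleus and to sites of mRNA storage, had the most negative difference of the family (-0.55 ± 0.19, limma adjusted p = 0.175), and its dimmer probe had -0.29.

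The cap-binding genes differed among themselves. EIF4E2, a cap-binding homolog that represses translation of bound mRNAs, had 15.17 and 15.07 in mock cells and 15.46 and 15.83 with PSC medium (0.53 ± 0.19, limma adjusted p = 0.178). EIF4E, the main cap-binding factor, had a difference of 0.09 ± 0.17, with overlapping groups, and EIF4E3 had -0.29 ± 0.17. The oocyte-type gene EIF4E1B was dim and had -0.04. The scaffold genes that bridge cap and ribosome had -0.28 ± 0.20 for EIF4G1 and 0.06 ± 0.17 for EIF4G2, which encodes a related protein that cannot bind eIF4E. A second probe of EIF4G2 had 0.68 ± 0.16 (limma adjusted p over all probes = 0.114).

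The EIF4A helicase genes, with the paralog EIF4A3 counted in, and the cofactor genes all had positive differences and did not overlap between groups. Of these 5, 0 passed in limma and 0 had an unadjusted p under 0.05. Among all genes, 24.5% were higher without overlap and 53.5% did not overlap in either direction. EIF4A1, the main RNA helicase of the cap complex, had 16.82 and 16.81 on the mock arrays and 17.05 and 17.37 on the PSC medium arrays (0.39 ± 0.18, limma adjusted p = 0.258), and its difference was 0.23 without PSC medium array 2. EIF4A2, its close paralog, had 16.04 and 15.95 against 16.64 and 16.23 (0.44 ± 0.19, limma adjusted p = 0.248), and a second probe of it had -0.03. The helicase cofactor genes EIF4B and EIF4H had 0.31 ± 0.19 and 0.21 ± 0.17. EIF4A3, a paralog that works in the exon junction complex rather than at the cap, had 0.09 ± 0.15.

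The 5 genes of the eIF5 and eIF6 group had differences between -0.09 and 0.17, and 0 passed in limma. EIF5, which makes eIF2 hydrolyse GTP at the start codon, had 12.64 and 12.90 in mock cells and 13.15 and 12.68 with PSC medium (0.14 ± 0.22), and its groups overlapped. Its 2 other probes lay on either side of that value, at 0.73 ± 0.15 and -0.32 ± 0.15, so the gene gave no common direction. EIF5A, the hypusine-bearing factor that helps ribosomes through difficult peptides, had 16.11 and 15.92 against 16.37 and 16.00 (0.17 ± 0.19), and its other probe had 0.17. EIF6, which keeps free large subunits from joining small ones, had 15.17 and 15.09 against 15.27 and 15.30 (0.15 ± 0.15), without overlap, and its 2 other probes had 0.29 and 0.31. EIF5B and EIF5A2 had differences of 0.06 and -0.09.

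EIF2A and EIF2D encode factors outside eIF2 that can deliver tRNA to the ribosome. EIF2A had 11.04 and 11.40 against 11.34 and 11.25 (0.08 ± 0.19). EIF2D had 12.03 on mock array 1 and 10.56 on mock array 2, against 10.85 and 10.78 with PSC medium. Its difference of -0.48 ± 0.45 rested on mock array 1 and was 0.25 without it. EIF5AL1, a near-identical copy of EIF5A, had raw intensities of 30 and 8 in mock cells and -14 and 19 with PSC medium, so its difference of 1.33 ± 1.15 was not measured above background.

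**Figure D4:**
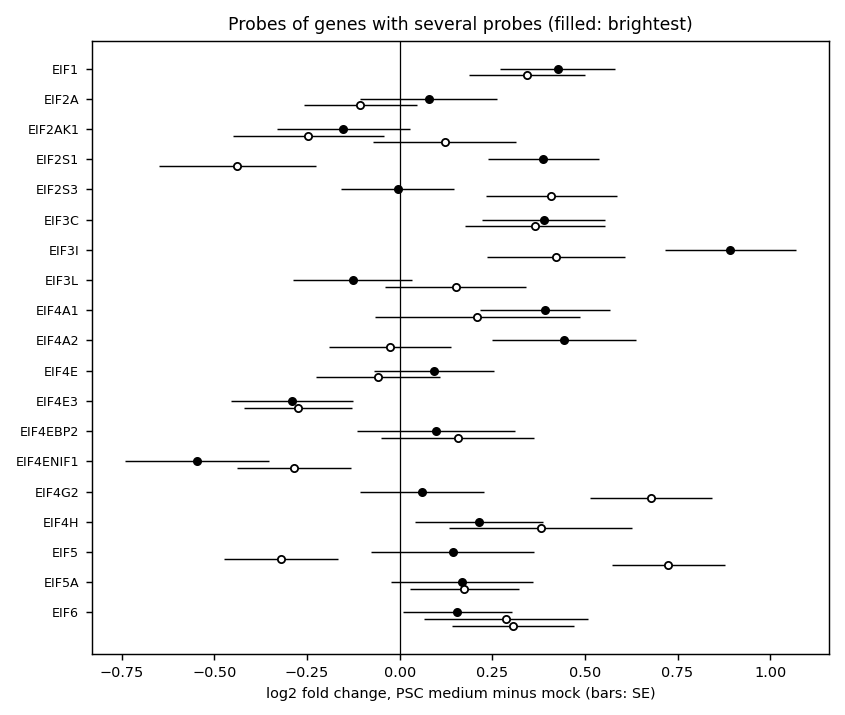
Log2 fold change, PSC medium minus mock, of every probe (points, bars show SE) of the 19 initiation factor genes with several probes, with the brightest probe filled. Probes of EIF2S1, EIF2S3, EIF3I, EIF4A2, EIF4G2 and EIF5 lie apart from each other, and those of EIF3C, EIF4E3, EIF5A and EIF6 lie close together.

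The plot of single probes shows how far a gene's value rests on the probe taken. The 19 genes with several probes had 22 further probes, of which 14 had the same sign as the brightest one and 8 the opposite sign. Of these 22, 0 passed in limma over all probes and 2 had an unadjusted p under 0.05, those of EIF4G2 and EIF5. Of the 4 genes with promoters shown above, EIF3I alone had a second probe, and its place among the 4 rested on the probe taken. The others, EIF4EBP3, EIF2B2 and EIF1B, rested on 1 probe each.

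Genes that work beside the initiation factors were followed in 3 lists. Of 31 partners and regulators of initiation, 1 rose in limma and 0 fell (7 higher, 1 lower, with an unadjusted p below 0.05), with a median difference of 0.09. These are 3.23% called and 25.8% at the unadjusted threshold, near the 2.14% and 22.5% of all genes. The gene that rose was BZW1, whose product mimics part of eIF5, competes with it for eIF2 and makes start codon choice stricter. BZW1 had 13.50 and 13.60 on the mock arrays and 15.01 and 15.39 on the PSC medium arrays, with the groups far apart (1.65 ± 0.19, 3.13-fold, limma adjusted p = 0.0243). Its 2 other probes disagreed in size, at 0.65 ± 0.18 and -0.02 ± 0.16, and with all 3 averaged the difference was 0.76 (adjusted p = 0.0795). The probe with -0.02 was the brighter one in mock cells, at 13.55 and 13.74. The probe used for BZW1 was thus the brightest only through its PSC medium arrays, and its call rests on that choice. PABPC4, a poly(A)-binding protein gene, had 0.69 ± 0.15 (limma adjusted p = 0.0789). PPP1R15A, which encodes the stress-induced subunit that directs a phosphatase to eIF2 alpha, had 0.72 ± 0.18 (limma adjusted p = 0.0924), and the constitutive PPP1R15B had 0.01. GCN1, which activates GCN2, had 0.61 ± 0.18, and IMPACT, which restrains that activation, had -0.59 ± 0.16, neither past the threshold (limma adjusted p = 0.126 and 0.114). The other members with an unadjusted p below 0.05 were NCK1 (0.89 ± 0.26), CYFIP1 (0.61 ± 0.18) and MKNK2 (0.54 ± 0.17), none past the threshold. GCN1, IMPACT and PPP1R15B have 2 probes each, of which only the brightest is given here. PPP1R15A, PPP1R15B, GCN1, IMPACT, NCK1, CYFIP1 and MKNK2 were named after their values were seen. Whether they form a common pattern was not tested.

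Of 13 elongation and termination factors, 0 passed in limma (3 higher, 0 lower, with an unadjusted p below 0.05), with a median of 0.05 and a mean of -0.0072. The unadjusted share was 23.1%, near the 22.5% of all genes. By smallest p the first 2 were the exchange factor gene EEF1D at 0.95 ± 0.20 (limma adjusted p = 0.0699) and the release factor gene GSPT1 at 0.51 ± 0.18, which had -0.55 on its other probe. The largest absolute differences of this list, named after their values were seen, were negative. They were -1.21 ± 0.51 for GSPT2 (limma adjusted p = 0.233) and -0.99 ± 0.60 for EEF1G (limma adjusted p = 0.380). GSPT2 was dim, with 6.34 and 7.64 in mock cells and 5.24 and 6.32 with PSC medium. EEF1G rested on PSC medium array 2, with 17.24 and 17.62 against 17.41 and 15.46 and overlapping groups. EEF1G has 2 probes, of which only the brightest is given here. Of 8 mitochondrial translation factors, 0 passed (0 higher, 1 lower, with an unadjusted p below 0.05), with a median of -0.11, and 7 of the 8 had a negative difference. The unadjusted share was 12.5%, against 22.5% of all genes. Positive differences made up 12.5% of this list and 48.2% of all genes. Its leading gene was the mitochondrial initiation factor gene MTIF3 at -0.65 ± 0.18 (limma adjusted p = 0.110), whose 3 other probes had -0.48, -0.16 and -0.09. The listed genes EEF1E1 and GFM2 were not analysed here.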

How the data were processed

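Per the labels' protocols, NucleoSpin-purified total RNA was amplified as amino allyl aRNA and coupled to a Cy5 dye. The authors deposited linear intensities, 1 whole number per probe and array, with some below 0, so a background had been subtracted. Scanner, extraction software and scaling are not given in the sources used here. Array medians differed by 0.325 on the log2 scale, above a limit of 0.2, so intensities were quantile normalized, floored at 1 and log2 transformed. All 75 member probes matched the RefSeq table (GRCh38.p14) by Entrez ID. A gene was represented by its brightest probe, by the mean over all 4 arrays. That choice includes the PSC medium arrays, and for EIF3I and BZW1 it turned on them. The comparison used a two-sided moderated test (limma 3.58.1, R 4.3.3). Its p-values were adjusted by Benjamini-Hochberg over 19090 genes, with a threshold of 0.05. Precision is limited by the number of arrays, which leaves 2 residual and 3.97 prior degrees of freedom.

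Members, lists and alternatives were chosen with earlier results of these data known. Array values are given for members past the threshold, for eIF2, eIF2B and the kinases, and for the 3 largest absolute differences above the median gene level in each other role group. From the lists, members past the threshold and up to 2 by smallest p are named. Outside that rule stand the list genes marked above as named after their values were seen. Simulated arrays of 19090 genes, with 100 genes changed by 1 and 100 by 2 on the log2 scale, gave 68% and 99% recovered, with 26 false among 193 calls. Alternatives covered normalization, floor, dim genes, probe choice, variance model, replicate block, threshold and each array left out.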

Additional observations from a re-analysis of the deposited data

How the results depend on the processing

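The number of initiation factor genes called higher was 1 and moved in every alternative. It was 0 without normalization, with median centring, with averaged probes, with every probe tested on its own and with the replicate number as a block, 5 with genes under the median level left out, 5 with an added constant of 50, 8 with a trended robust variance and 10 at an unadjusted p under 0.05. Leaving out each array gave 0 to 0, each time with 1 residual degree of freedom. The number called lower was 0, and 1 with a trended robust variance and at the unadjusted threshold. Among partners of initiation the number higher was 1, and 0 without normalization, with median centring, averaged probes or the replicate block, 7, 4 and 7 with dim genes left out, the added constant and the trended variance, 7 unadjusted, and 0 to 0 with an array left out. The number lower was 0, and 1 in those same 4 settings. For elongation factors the number higher was 1, 1, 3 and 3 in those 4 settings, and the number lower was 1 with dim genes left out and with the trended variance. For mitochondrial factors the number lower was 1 in all 4. Deviations of same-numbered arrays from their group means had r = 0.07 over genes, which are not independent. With 2 arrays per group this value cannot show whether same-numbered arrays were handled together, and the labels do not say. With the replicate number as a block, 84 genes of the whole table were called in place of 409.

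The family median of 0.081 was 0.16 without normalization and 0.032 with median centring, and 0.0065 to 0.097 with an array left out, lowest without PSC medium array 2. Over 12 alternatives the median of eIF2 ranged from 0.16 to 0.47, of the kinases from -0.18 to -0.01, of eIF4 from 0.06 to 0.19, of eIF2B from -0.15 to 0.04 and of eIF3 from -0.06 to 0.21. Differences that turned sign, none of them past the threshold in limma, were the following. Without normalization they were EIF2S3 0.082, EIF2AK2 0.077, EIF3A 0.095, EIF3K 0.017, EIF4E1B 0.021, EIF5A2 0.053, EIF5AL1 -1.83. With median centring they were EIF1AY -0.014 and EIF5AL1 -1.96. With averaged probes they were EIF2S1 -0.025, EIF2S3 0.20, EIF3L 0.012, EIF2A -0.014, GSPT1 -0.018. With an array left out, the ranges that crossed 0 were EIF1AY -0.15 to 0.18, EIF2S3 -0.085 to 0.073, EIF2B4 -0.18 to 0.033, EIF2B5 -0.28 to 0.039, EIF2AK2 -0.079 to 0.027, EIF2AK4 -0.32 to 0.066, EIF3A -0.25 to 0.25, EIF3B -0.090 to 0.51, EIF3H -0.12 to 0.24, EIF3J -0.077 to 0.24, EIF3K -0.26 to 0.13, EIF4E -0.0062 to 0.19, EIF4E1B -0.13 to 0.054, EIF4G2 -0.052 to 0.17, EIF4EBP2 -0.12 to 0.32, EIF5 -0.095 to 0.38, EIF5A -0.013 to 0.35, EIF5A2 -0.27 to 0.087, EIF5B -0.11 to 0.22, EIF2A -0.10 to 0.26, EIF2D -1.22 to 0.25, EIF5AL1 -0.54 to 3.21. A further 17 differences kept their sign and moved by over 1.5 times, EIF2AK1 -0.30 to -0.0046, EIF2AK3 -0.30 to -0.023, EIF2B1 -0.27 to -0.094, EIF2B2 0.48 to 1.06, EIF2S2 0.16 to 0.54, EIF3D 0.22 to 0.73, EIF3E -0.61 to -0.14, EIF3F -0.30 to -0.14, EIF3G -0.25 to -0.035, EIF3L -0.23 to -0.025, EIF4A1 0.23 to 0.55, EIF4A2 0.24 to 0.65, EIF4B 0.17 to 0.45, EIF4E2 0.34 to 0.72, EIF4ENIF1 -0.73 to -0.36, EIF4G1 -0.49 to -0.061, EIF4H 0.078 to 0.35. The causes were not tested. Signal over background limits EIF5AL1 and EIF3F.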
